A study of Mus musculus with 49 samples.

Results

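Single-cell Hi-C tables hold, for each cell, how its chromosomal contacts are spread over genomic distance, and 3 of the 15 per-cell measurement columns describe that spread. They are f_near_band, the share of a cell's contacts in a near band of distances, f_mitotic_band, the share in a band named for mitosis, and far_mu, a mean distance of far contacts in bp that is given here in Mb and called the far distance. The 3 columns were read by name from the tables of diploid cells in 2i, diploid cells in serum and haploid cells, for the 4098 of 5871 listed cells that passed the authors' quality flag. The limits of both bands, and the distance from which a contact counts as far, are not given in the sources used here.

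In interphase a chromosome is folded into loops and domains, so that many contacts are short. In mitosis the domains are lost and each chromatid becomes a compact array of loops, which puts contacts into an intermediate range of distances. After division the array unfolds and longer contacts return, and replication and the G2 phase follow with domains in place. A contact spectrum per cell has for these reasons been used to place single cells along the cycle.

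All cells were mouse embryonic stem (ES) cells, fixed with formaldehyde. The diploid line was an F1 hybrid of 129/SV-Jae and castaneus, and the haploid line was H129-1. Both were cultured in 2i, which replaces serum by a pair of kinase inhibitors, with no feeder cells, or with FBS on feeder cells, in which case feeders were depleted and Oct-3/4-positive cells were sorted. Some cells were sorted on Hoechst, a DNA stain, and on Geminin, a protein present in S and G2. The diploid 2i table has the conditions 1CDU, NoSort and the 4 sort gates 1CD_G1, 1CD_eS, 1CD_mS and 1CD_lS_G2, the serum table has 1CDS1 and 1CDS2, and the haploid table has 2i_all, 2i_G1 and Serum_G1/S. These names are the tables' own, and beyond the words in them their meaning is not stated in the labels. Medium, feeder cells and the Oct-3/4 sort change together, so their parts in a serum difference cannot be told apart. The labels do not say which libraries came from separate cultures, so p-values measure the spread between libraries, which may be technical.

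There were 1992 passing cells in 18 diploid 2i libraries, 859 in 8 diploid serum libraries and 1247 in 19 haploid libraries, and 1 library held cells of both media. The median number of contacts per cell was 205511 in the 2i table, 255605 in the serum table and 80858 in the haploid table, and summed contacts per library ranged from 332107 to 50126513. Near-band, mitotic-band and between-chromosome shares summed to more than 100% in 37 of the 4098 cells, with a highest sum of 104%, so that these 3 shares are not parts of one total. The 2 band shares alone summed to between 57.8% and 98.3%, and what they leave is called the rest.

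The authors' groups rest on the 2 band shares: post-M and G1 after division, then early-S and late-S/G2, and pre-M before it. In 2i the near-band share of single cells ran from 37.8% to 65.3% in G1, from 62.2% to 80.2% in early-S and from 76.9% to 88.3% in late-S/G2. G1 and early-S shared only the range from 62.2% to 65.3%, which held 133 of 1286 cells (10.3%), and the shared range held 20 of 514 cells (3.89%) in serum and 228 of 883 (25.8%) in haploid cells. Post-M cells had a mitotic-band share of at least 31.6% and G1 cells of at most 31.5% in 2i. A change of either band share from group to group is therefore part of how the groups were made, and is given here as a level with no test.

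The order of cells within a group could be rebuilt from the tables. Within post-M the authors' order was the falling mitotic-band share and within pre-M the rising one, with Spearman's rho of -1 and 1 in each table. Within G1 it was the sum of the standardised near-band share and the standardised far distance, which gave the same rank for all 404, 146 and 324 cells of the 2i, serum and haploid tables. Within early-S the sum of the near-band share and the replication score gave rho of 0.99993 to 0.99998, and within late-S/G2 the near-band share minus a weighted replication score gave at least 0.99999. The far distance thus enters the order in G1 only.

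Near-band contacts were the largest class in each of the 3 interphase groups. Over library means, the near-band share was 57.1% ± 1.14 (SD, n = 10) in G1, 71.8% ± 3.03 (n = 16) in early-S and 82.0% ± 0.781 (n = 10) in late-S/G2 of the 2i table. The mitotic-band share was 16.2% ± 0.839, 11.7% ± 0.835 and 8.33% ± 0.217 in the same libraries. The mean far distance did not follow either of them: it was 27.9 Mb ± 2.01, 28.4 Mb ± 1.31 and 25.2 Mb ± 0.957, highest in the middle group. The G1 and early-S means differ by less than either SD and rest on partly different libraries and conditions. In the 4 libraries of NoSort G1 was the longest, with means of 29.6, 27.4 and 24.8 Mb.

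Early-S had the highest mean in serum and haploid cells too, but the lowest was that of G1 in serum and of late-S/G2 in haploid cells. In serum the far distance was 23.4 Mb ± 1.12 (SD, n = 7) in G1, 25.5 Mb ± 0.754 (n = 8) in early-S and 23.8 Mb ± 0.661 (n = 7) in late-S/G2. In haploid cells it was 27.7 Mb ± 2.70 (n = 9), 29.6 Mb ± 2.79 (n = 13) and 26.5 Mb ± 0.440 (n = 9). Late-S/G2 was the most uniform group of the haploid table, and its G1 and early-S libraries were spread from 23.8 to 31.5 Mb and from 26.3 to 34.5 Mb.

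**Figure D1:**
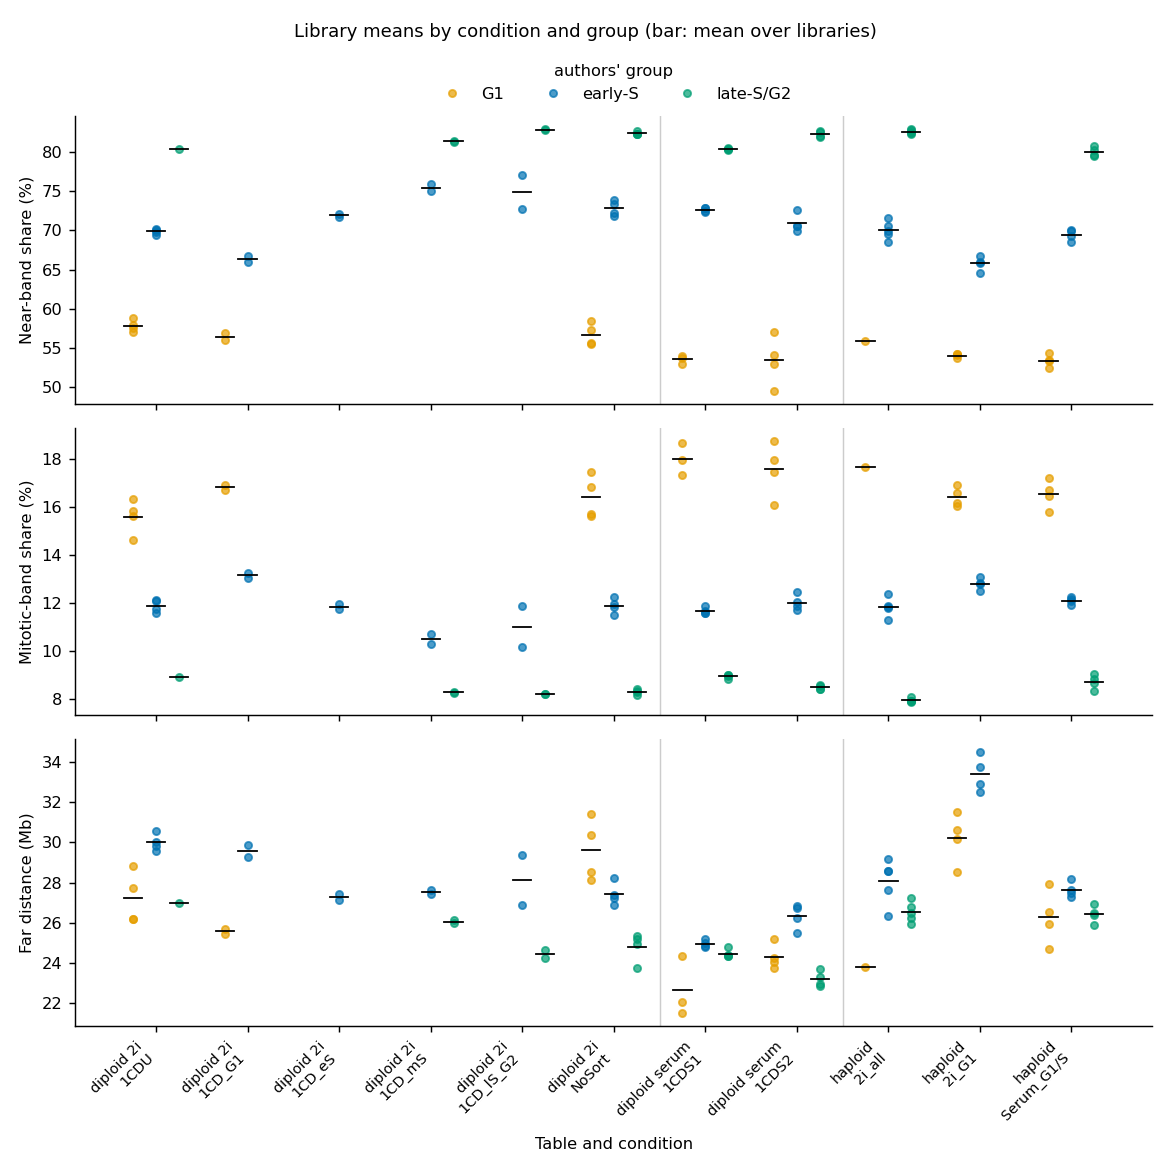
Near-band share, mitotic-band share (both in percent of contacts) and far distance (Mb) for each library with at least 10 cells of a group (points, coloured by the authors' group), by table and condition, with the mean over libraries as a bar. The band shares step by group in each condition, whereas the far distance differs between conditions within a group, with the longest values in early-S of haploid 2i_G1 (32.5 to 34.5 Mb).

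Single cells spread more than library means. In 2i the median SD between cells of one library was 4.82 Mb in G1, 3.21 Mb in early-S and 2.98 Mb in late-S/G2, against SDs between library means of 2.01, 1.31 and 0.957 Mb. Single G1 cells of the 2i table reached from 13.7 to 40.6 Mb, and single late-S/G2 cells from 17.8 to 40.1 Mb.

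The sort gates do not rest on the contacts, so they give a course that the band shares did not define. With at least 10 cells there were 2 libraries per gate, which allows no exact permutation p below 0.333, so no step between gates could pass a test. The near-band share of the library means was 58.5% and 59.3% in the G1 gate, 71.9% and 72.4% in the early-S gate, 78.9% and 78.6% in the mid-S gate and 79.5% and 78.7% in the late-S/G2 gate. Both libraries of the early-S gate lay above both of the G1 gate and both of the mid-S gate above both of the early-S gate, by 13.2 and 6.61 percentage points (exact permutation p = 0.333, adjusted p = 0.375 over 9 tests, each). The last step, of 0.382 points, was within the spread of the libraries (p = 0.667, exact permutation).

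The mitotic-band share fell and then rose along the gates. It was 16.1% and 15.8% in the G1 gate, 11.9% and 11.6% in the early-S gate, 9.31% and 9.30% in the mid-S gate and 10.7% and 11.8% in the late-S/G2 gate. The rise at the last gate came with the cells flanking mitosis: 40 of the 326 cells in the late-S/G2 gate were post-M or pre-M, against 3 of 262 in the mid-S gate. Over the cells of the 3 interphase groups the mean was 9.19% in the mid-S gate and 8.62% in the late-S/G2 gate.

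The far distance was nearly level over the first 3 gates. Library means were 26.3 and 26.5 Mb in the G1 gate, 27.4 and 27.2 Mb in the early-S gate, 26.3 and 26.6 Mb in the mid-S gate and 23.9 and 22.9 Mb in the late-S/G2 gate. The late-S/G2 gate thus lay below the mid-S gate by 3.06 Mb, with no overlap of its libraries (exact permutation p = 0.333, the smallest possible). Without the cells flanking mitosis the late-S/G2 gate had 24.5 and 24.9 Mb, still below the 26.5 and 26.6 Mb of the mid-S gate counted the same way.

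A gate also moved the band shares within a group. Early-S cells had a near-band share of 66.3% when they came from the G1 gate, 71.9% from the early-S gate and 75.5% from the mid-S gate (means of 2 libraries each), with mitotic-band shares of 13.1%, 11.8% and 10.5%. Their far distance was longest in the G1 gate. The share of G1 gate cells in the authors' G1 group was 221 of 280, and of early-S gate cells in the early-S group 285 of 303.

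Along the authors' order, cut into 20 bins of equal cell number per table, the near-band share rose from 47.8% in bin 1 to 83.8% in bin 19 of the 2i table and ended at 82.9%. The mitotic-band share started at 27.2%, reached 7.67% in bin 18 and was 10.6% in bin 20, which held the 28 pre-M cells. Serum cells went from 26.1% to 7.85% and haploid cells from 22.7% to 7.69%, both with the lowest value in bin 19. These 2 courses follow from the order, which was built on them.

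The far distance had a single broad maximum early in the course. In 2i it was 17.4 Mb in bin 1, 32.3 Mb ± 1.77 (SD over 14 libraries) in bin 5, 28.9 Mb in bin 11 and 20.5 Mb in bin 20. In serum the highest bin was bin 4 with 27.6 Mb ± 1.54 (7 libraries) and in haploid cells bin 5 with 33.9 Mb ± 2.74 (11 libraries). These bins lie at the end of G1, where the order itself sorts cells by rising far distance, so the height and place of this peak are in part set by the order.

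Binning the same interphase cells by the near-band share alone removes that dependence. The highest bin then held 30.2 Mb ± 2.73 (SD, 12 libraries) at a near-band share of 58.9% in 2i, 26.8 Mb ± 2.15 (8 libraries) at 66.5% in serum and 31.5 Mb ± 4.05 (13 libraries) at 62.3% in haploid cells. The first bin had 22.9, 18.9 and 23.6 Mb, and the last bin 23.2, 21.9 and 24.6 Mb. A rise, a plateau and a slow decline remained, with a lower maximum in each table: in 2i the bins from 58.9% to 75.8% all had means between 27.6 and 30.2 Mb.

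**Figure D2:**
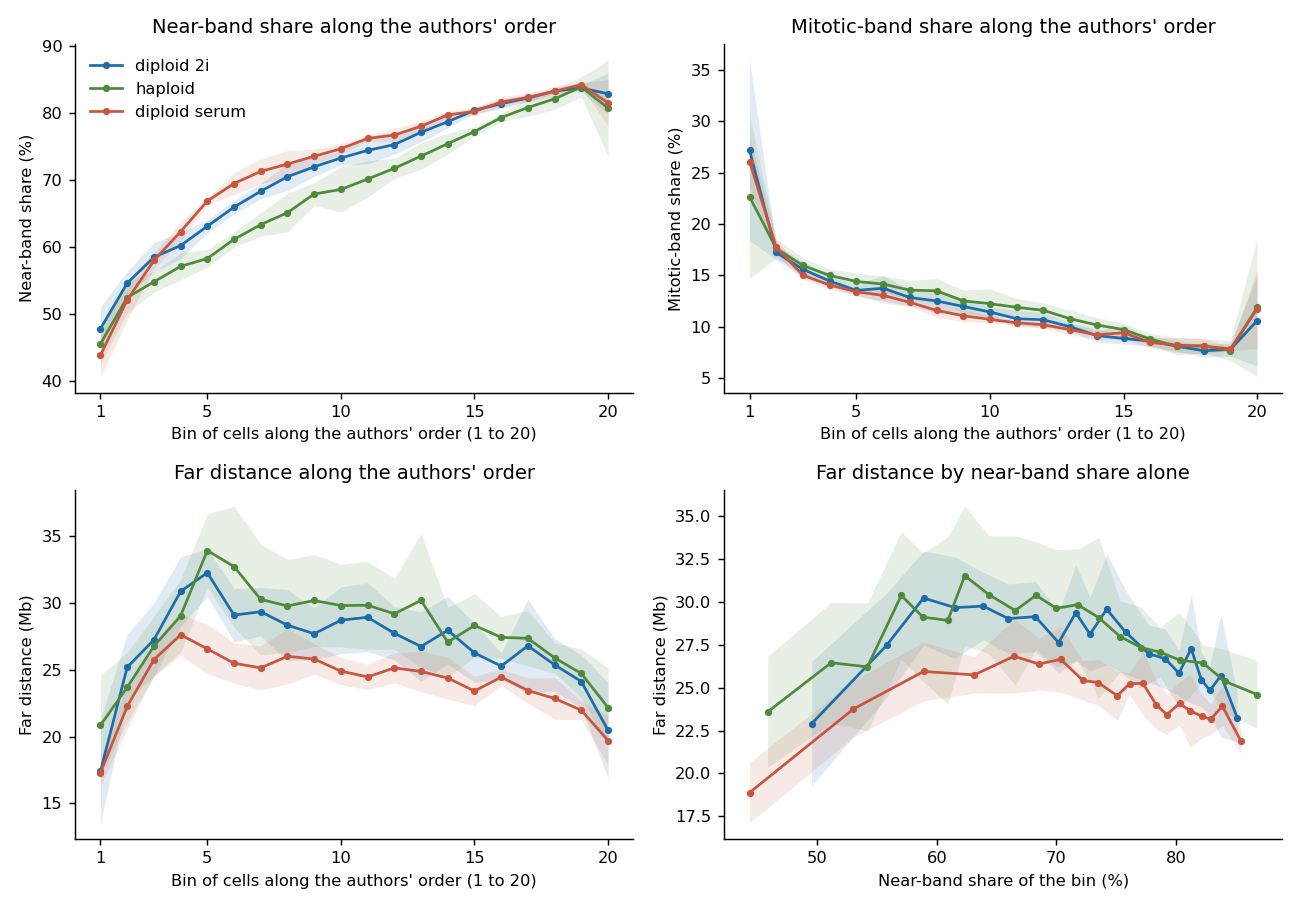
Near-band share, mitotic-band share (percent) and far distance (Mb) in 20 bins of cells along the authors' order, and far distance in 20 bins of the near-band share without post-M and pre-M cells; lines are means of library means and shading is 1 SD over libraries, for diploid 2i, diploid serum and haploid cells. The far distance is highest in bin 5 of 2i (32.3 Mb), bin 4 of serum (27.6 Mb) and bin 5 of haploid cells (33.9 Mb) and has a flatter top (30.2, 26.8 and 31.5 Mb) when the order is not used. No minimum of cells per library was set within a bin.

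Within a group the 2 band shares opposed each other in each library with at least 20 cells. The mean Spearman's rho of near-band and mitotic-band share over libraries lay between -0.719 and -0.885 in the 9 combinations of table and group. The 2 shares of a cell together held 57.8% to 98.3%, so a larger one leaves less room for the other. A negative rho is therefore in part arithmetic. These correlations are over cells of one library, which share its preparation and depth, and are given as a description. 

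The far distance changed its relation to both shares between G1 and S. In G1, cells with a larger mitotic-band share had a shorter far distance: rho was -0.756 ± 0.0634 (SD, 6 libraries) in 2i, -0.906 ± 0.0591 (3 libraries) in serum and -0.665 ± 0.105 (8 libraries) in haploid cells, negative in each of the 17 libraries. In early-S the same rho was -0.207 ± 0.277 (14 libraries), -0.165 ± 0.170 (6 libraries) and -0.217 ± 0.194 (11 libraries). In late-S/G2 it was -0.284 ± 0.0583 (8 libraries), -0.214 ± 0.149 (6 libraries) and -0.0770 ± 0.132 (9 libraries). The negative rho with the mitotic-band share was thus weaker in the 2 later groups. The groups are cut on the band shares, and this share also varied less there. Its median SD between cells in G1, early-S and late-S/G2 was 2.43, 1.43 and 0.936 points in 2i. In serum it was 4.45, 1.60 and 1.07 points, and in haploid cells 2.44, 1.59 and 1.36 points. The part of this narrower range in the smaller rho was not tested.

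Of the early-S libraries, 3 stood apart with a strong negative rho: diploid 19 (-0.817), diploid 20 (-0.771) and haploid 11 (-0.692). The first 2 are the G1 gate and the other is of the condition 2i_G1. The other 3 libraries of 2i_G1, haploid 12, 13 and 14, had -0.205, -0.290 and -0.321, with early-S near-band shares of 65.9%, 66.0% and 66.8% against 64.5% in haploid 11.

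The near-band share went with a longer far distance in G1 and a shorter one afterwards. Its rho with the far distance was 0.384 ± 0.189 in 2i, 0.748 ± 0.0316 in serum and 0.360 ± 0.220 in haploid G1 cells. In early-S it was -0.215 ± 0.199, -0.145 ± 0.138 and -0.109 ± 0.136, and in late-S/G2 -0.259 ± 0.0461, -0.254 ± 0.207 and -0.300 ± 0.141. The sign was positive in 16 of 17 G1 libraries.

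The share of contacts outside both bands showed the reverse pattern. In early-S its rho with the far distance was 0.423 ± 0.178, 0.307 ± 0.111 and 0.25 ± 0.128 in 2i, serum and haploid cells, and in late-S/G2 0.547 ± 0.0540, 0.525 ± 0.183 and 0.489 ± 0.161, positive in each of the 54 library values of these 2 groups. In G1 the rho was -0.0779 ± 0.181, -0.286 ± 0.0687 and -0.103 ± 0.260. After G1, cells with more contacts outside both bands had farther far contacts. Depth per cell had mean rho of contacts and far distance between -0.184 and 0.124 over the 9 combinations. In early-S and late-S/G2 this was weaker than the rho of the rest in each table, at -0.140 to -0.00713. For G1 cells it was weaker only in the serum table (0.0508), and not in the 2i (-0.184) or haploid table (0.124). Single libraries ran from -0.501 (G1, 2i table) to 0.521 (late-S/G2, haploid table).

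**Figure D3:**
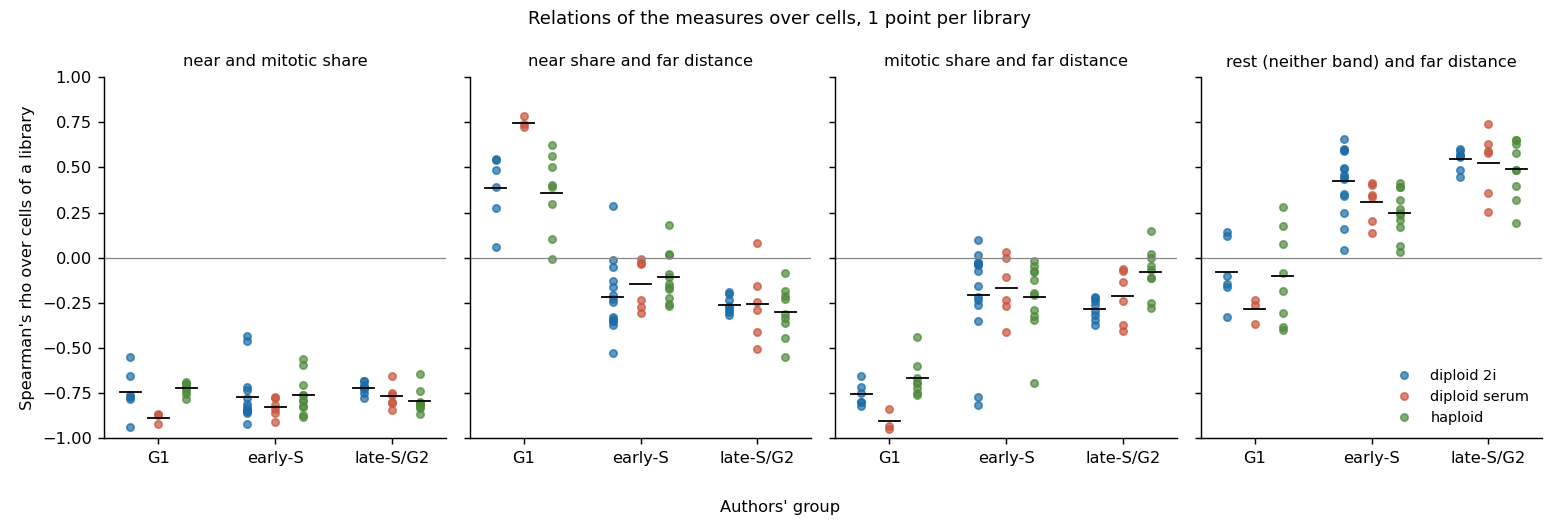
Spearman's rho over the cells of each library with at least 20 cells (points) for 4 pairs of measures, by the authors' group and table, with the mean over libraries as a bar. The far distance falls with the mitotic-band share in G1 (means -0.756, -0.906 and -0.665) and only weakly in early-S and late-S/G2, where it rises with the share of contacts outside both bands.

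Cells flanking mitosis were too few per library and were pooled within a table. Post-M cells had the shortest far distance, with a median of 11.4 Mb over 29 cells of the 2i table and 12.5 Mb over 6 serum cells, and pre-M cells had 15.4 Mb (28 cells) in 2i, 15.8 Mb (17 cells) in serum and 16.9 Mb (21 cells) in haploid cells. Over pre-M cells the far distance fell with the mitotic-band share, with rho of -0.881, -0.961 and -0.719. Over post-M cells of the 2i table the rho was -0.811. The near-band share separated the sides of mitosis, with a median of 42.9% in post-M and 77.4% in pre-M cells of the 2i table.

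At one and the same mitotic-band share the far distance still differed between groups. In the 2i table, at a mitotic-band share of 12 to 14%, the mean far distance was 32.5 Mb ± 3.97 (SD, 54 cells) in G1, 28.3 Mb ± 3.47 (332 cells) in early-S and 19.3 Mb ± 0.711 (3 cells) in pre-M. At 10 to 12% it was 28.7 Mb ± 3.74 (356 cells) in early-S, 23.2 Mb ± 1.68 (26 cells) in late-S/G2 and 20.2 Mb ± 0.908 (7 cells) in pre-M. From long to short, G1 came first, early-S next, late-S/G2 after it and pre-M last, the order of rising near-band share at that mitotic-band share.

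Serum and haploid cells had the same order in these bins. In serum at 12 to 14% the means were 28.4 Mb in G1 (17 cells), 25.2 Mb in early-S (118 cells) and 18.9 Mb in pre-M (4 cells). In haploid cells at 12 to 14% they were 32.1 Mb in G1 (34 cells) and 29.3 Mb in early-S (232 cells), and at 10 to 12% 29.2 Mb in early-S (181 cells) and 25 Mb in late-S/G2 (42 cells). SDs between haploid cells were 3.54 to 4.50 Mb in these bins.

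Pre-M and G1 cells are on opposite sides of the course and can have equal mitotic-band shares. Compared within the same library and the same 2-point bin, the far distance of pre-M minus G1 cells was -7.35 Mb ± 4.76 (SD) in the 2i table (negative in 4 of 4 libraries), -10.1 Mb ± 3.68 in serum (3 of 3) and -8.03 Mb ± 4.76 in haploid cells (7 of 7). This rests on 4, 11 and 11 pre-M cells. Their near-band share was higher by 22.2, 23.4 and 20.3 percentage points, which is part of how the groups were told apart.

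**Figure D4:**
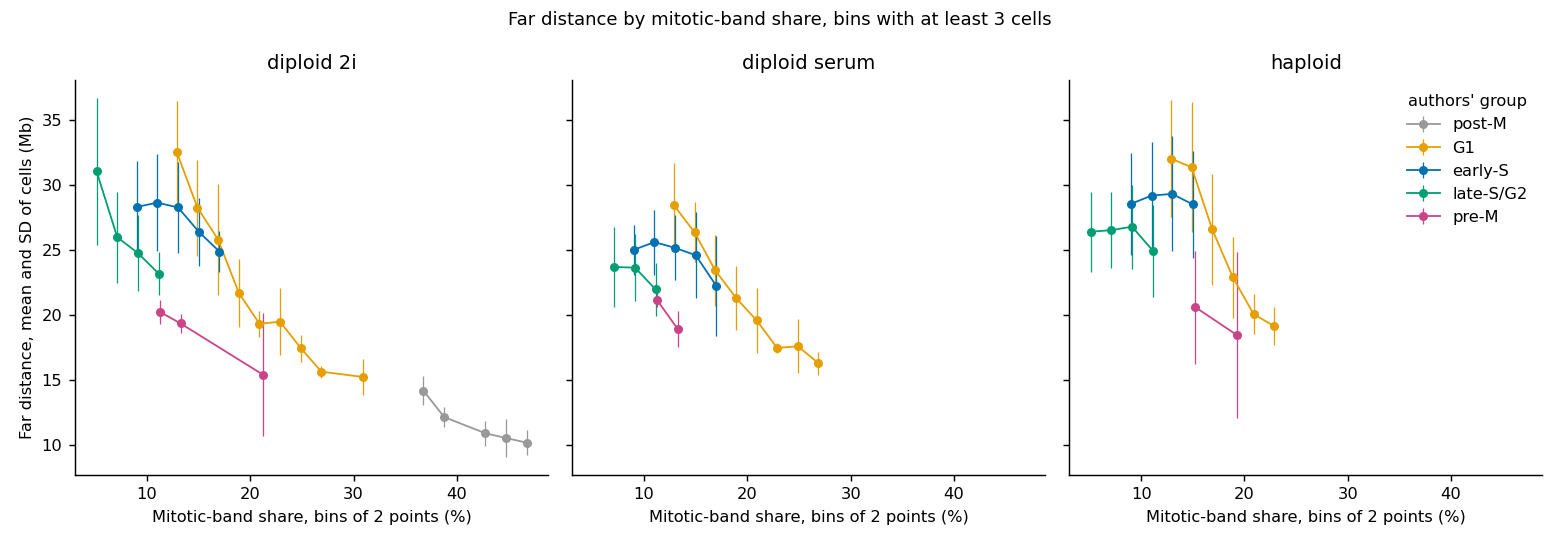
Far distance (Mb, mean and SD over cells) in bins of 2 percentage points of the mitotic-band share, by the authors' group, for bins with at least 3 cells in diploid 2i, diploid serum and haploid cells. Within a bin G1 cells lie highest and pre-M cells lowest; in 2i at 12 to 14% the means are 32.5, 28.3 and 19.3 Mb in G1, early-S and pre-M.

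A far distance matched for the mitotic-band share was computed for each cell as its difference from the mean of all cells of its table in the same 2-point bin, and compared between successive groups within libraries with a two-sided sign-flip test, adjusted over 6 tests. From early-S to late-S/G2 in 2i it fell by 1.09 Mb ± 0.913 (SD) in 9 of 9 libraries (exact adjusted p = 0.0234), a call lost with a minimum of 5 cells per library (-0.139 Mb) or 20 cells (-0.602 Mb), with cells of middle depth (-0.586 Mb) and with bins of 1 point (-0.861 Mb). From G1 to early-S in serum it fell by 0.574 Mb ± 0.519 in 7 of 7 libraries (exact adjusted p = 0.0469), and leaving out any one of the 8 serum libraries raised the adjusted p to at least 0.0938. The other 4 steps did not pass: -1.01 Mb ± 2.97 from G1 to early-S in 2i (permutation, 10 libraries, adjusted p = 0.430), -0.776 Mb ± 1.34 from early-S to late-S/G2 in serum (exact adjusted p = 0.375), and 0.477 Mb ± 1.56 and 0.384 Mb ± 1.25 in haploid cells (exact adjusted p = 0.430 each).

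Most cells of successive groups lie in different bins, so this measure depends on the bins that both groups fill. Restricted to bins with at least 10 cells of both groups, which was chosen after seeing the data, early-S minus G1 was -2.52 Mb in 2i (exact adjusted p = 0.0313), and late-S/G2 minus early-S was -2.60 Mb in haploid cells (exact adjusted p = 0.0313). In haploid cells the sign thus turned relative to the value over all bins. With a linear fit on both band shares the G1 to early-S step was positive and passed in each table, at 2.37 Mb in 2i (permutation, adjusted p = 0.0258), 2.32 Mb in serum (exact adjusted p = 0.0234) and 3.33 Mb in haploid cells (exact adjusted p = 0.0117). That fit also holds the near-band share, which tells G1 from early-S, so it does not match for the mitotic-band share alone. In bins holding both groups the G1 to early-S step was -2.85 Mb in serum and -1.77 Mb in haploid cells, neither past the threshold. The sign of this step therefore differed with the bins used and with whether the near-band share was held too.

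The step from G1 to early-S in 2i went in opposite directions in different conditions. In the 4 libraries of 1CDU the far distance was 26.2, 26.2, 27.7 and 28.8 Mb in G1 and 30.6, 29.6, 29.8 and 30.0 Mb in early-S. In the 4 libraries of NoSort it was 30.4, 28.5, 31.4 and 28.1 Mb in G1 and 27.4, 28.2, 27.3 and 26.9 Mb in early-S. Early-S was the longer group in each 1CDU library and the shorter in each NoSort library, by 2.77 Mb ± 1.41 and -2.16 Mb ± 1.74 (SD, n = 4 each).

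Matched for the mitotic-band share, the same change was 1.34 Mb ± 0.962 in 1CDU and -4.33 Mb ± 0.927 in NoSort, with 0.913 Mb ± 0.899 in the 2 libraries of the G1 gate. The difference between 1CDU and NoSort was 5.66 Mb (exact permutation p = 0.0286, the smallest that 4 against 4 libraries allow; adjusted p = 0.190 over 20 such comparisons). G1 cells of NoSort were 52 in the bins used. Their contacts per cell averaged 108257 against 117770 in 1CDU, and their share between chromosomes 5.62% against 6.52%, and their alignment score 0.207 against 0.256, with overlapping library values for all 3. Their part in the far distance was not tested.

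Averaged over groups, conditions within a table were compared by permuting library labels, together with the comparisons between tables, with adjustment over 12 tests. The far distance of 1CDU minus NoSort was 0.782 Mb (exact permutation, adjusted p = 0.206), and matched 0.317 Mb (adjusted p = 0.486, exact). That average mixes the opposite signs of G1 and early-S, and its late-S/G2 value rests on 1 library of 1CDU, diploid 11, without which the matched difference was -0.514 Mb. With at least 20 cells per library, which leaves early-S as the one group of both conditions, the differences were 2.56 and, matched, 2.28 Mb (exact permutation, adjusted p = 0.0343 each). In serum, 1CDS1 minus 1CDS2 was -0.583 Mb (exact permutation, adjusted p = 0.218) and matched -0.464 Mb (adjusted p = 0.2, exact).

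Haploid 2i_G1 cells had the longest far contacts of any condition. In early-S the 4 libraries of 2i_G1 had 34.5, 32.5, 32.9 and 33.8 Mb and the 5 libraries of 2i_all 26.3, 29.2, 27.6, 28.6 and 28.6 Mb, with no overlap. In G1 the 2i_G1 libraries had 30.2, 28.5, 30.6 and 31.5 Mb, and the single 2i_all library with at least 10 such cells had 23.8 Mb. The difference over both groups was 5.88 Mb, and 4.70 Mb when matched for the mitotic-band share (exact permutation p = 0.00794, adjusted p = 0.0238 for both, 4 against 5 libraries). In early-S alone the differences were 5.36 and 4.88 Mb, with the same adjusted p (exact permutation).

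Other measures moved with this difference. Early-S cells of 2i_G1 had a near-band share of 65.8% against 70.0% in 2i_all, a mitotic-band share of 12.8% against 11.8%, and an alignment score, the authors' measure of how contacts between chromosomes align, of 0.153 ± 0.0106 against 0.276 ± 0.0367 (SD). Their contacts per cell averaged 80714 against 52147. The share between chromosomes was 6.92% against 6.24%. The part of these in the far distance was not tested.

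Haploid cells in serum were compared with haploid cells in 2i, which pool 2i_G1 and 2i_all. The difference was -1.84 Mb (exact permutation, adjusted p = 0.195, 4 against 9 libraries), and -1.95 Mb when matched (exact p = 0.0490, adjusted p = 0.117). With at least 20 cells per library it passed, at -2.60 and -2.57 Mb (exact permutation, adjusted p = 0.0336 and 0.0302). In early-S the Serum_G1/S libraries lay between 27.3 and 28.2 Mb, inside the range of the 2i libraries (26.3 to 34.5 Mb). Their mean of 27.6 Mb compares with 33.4 Mb in 2i_G1 and 28.1 Mb in 2i_all, and in late-S/G2 their 26.4 Mb with 26.5 Mb in 2i_all. In G1 they had 26.3 Mb, above the 23.8 Mb of the single 2i_all library. The pooled difference thus holds the long values of 2i_G1, and serum against 2i_all alone was not tested.

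Diploid cells in serum had shorter far contacts than diploid cells in 2i in each group. In G1 the serum libraries ranged from 21.5 to 24.3 Mb (median 23.8 Mb, 7 libraries) and the 2i libraries from 25.5 to 31.4 Mb (median 27.9 Mb, 10 libraries), with no overlap. In early-S the ranges were 24.6 to 26.8 Mb (8 libraries) and 26.9 to 30.6 Mb (16 libraries), again with no overlap, and in late-S/G2 22.8 to 24.4 Mb and 23.7 to 27 Mb, which overlapped. The difference over groups was -2.95 Mb, and -2.37 Mb at a matched mitotic-band share (exact permutation p = 2.04e-06 and adjusted p = 1.22e-05 for both, 8 against 17 libraries with 1 of them on both sides).

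Contacts per cell moved with the medium too, with means of 272381 in serum and 189221 in 2i over early-S libraries. Restricted to the middle of each table's contact depths (25th to 75th percentile), the difference kept its direction and its call. The limits were 106460 to 299290 contacts in 2i, 136610 to 388066 in serum and 49234.5 to 158676 in haploid cells. Depth was thus not made equal between tables, and its part in these differences was not tested. All haploid libraries, 9 in 2i and 4 in serum, were also set against diploid 2i, so the medium is mixed into this comparison. The haploid minus diploid 2i difference did not pass the threshold, at 0.778 Mb (permutation, adjusted p = 0.195) and 0.788 Mb matched (permutation, adjusted p = 0.151, 13 against 17 libraries). Both passed with at least 20 cells per library, at 1.53 and 1.58 Mb (permutation, adjusted p = 0.0302 and 0.0117), with cells of middle depth (1.53 and 1.57 Mb, permutation, adjusted p = 0.0381 each) and with batch numbers as units (1.26 and 1.36 Mb, permutation, adjusted p = 0.0465 and 0.0132). In early-S the mean of 2i_G1 was 33.4 Mb, whereas 2i_all with 28.1 Mb and Serum_G1/S with 27.6 Mb lay below the 28.4 Mb of diploid 2i.

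Cells with a long far distance for their mitotic-band share were then described across the table. A cell was called long when its matched far distance was in the upper 25% of its table, above 2.02 Mb (2i), 1.65 Mb (serum) and 2.55 Mb (haploid). Within 0.5 Mb of this limit lay 148 of 1938, 86 of 839 and 78 of 1234 cells. Pooled, long cells were 30.6% of G1, 29% of early-S and 16.9% of late-S/G2 cells in 2i, 29.5%, 30.2% and 18.1% in serum and 34.6%, 26.3% and 14.7% in haploid cells. Pre-M cells were rarely long, 1 of 22, 0 of 12 and 1 of 15, where 0 of 12 allows a share of up to 25% by counting error.

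The share also differed by condition. The share of long cells per library was 40.6% ± 4.51 (SD, n = 4) in 1CDU, 26.7% ± 11.4 (n = 5) in NoSort and 14.3% in each of the 2 libraries of the late-S/G2 gate. Among NoSort libraries, 68.6% ± 12.1 of G1 cells but 17.6% ± 3.51 of early-S cells were long (n = 4), whereas in 1CDU it was 26% ± 13.4 and 46.7% ± 6.85 (n = 4). In haploid cells it was 61.7% ± 7.15 (n = 5) in 2i_G1, 15.8% ± 6.22 (n = 6) in 2i_all and 14% ± 4.67 (n = 5) in Serum_G1/S. No library of 2i_G1, from 52.7% to 71.8%, overlapped with the others, of which the highest was 21.6%.

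To see what else marks such cells, the 25% of cells with the longest and the 25% with the shortest matched far distance were compared within each library and group with at least 20 cells, for 10 other measures. The matched measure here used the cells of one table and group. Its bins of 2 points left part of the mitotic-band share unmatched. Long minus short cells differed in it by -0.905 points in haploid early-S (higher in 1 of 11 libraries) and -0.802 points in G1 of 2i (1 of 6). In the other combinations of table and group this was between -0.272 and 0.312 points. The part of this remainder in the results below was not tested. Over 87 tests with a two-sided sign-flip test and Benjamini-Hochberg adjustment, 18 passed: 11 of 29 in 2i, 7 of 29 in haploid and 0 of 29 in serum cells. In serum 5 passed without adjustment (sign-flip tests), with 2 to 6 libraries per group. The smallest possible sign-flip p was 0.0313 with 6 libraries, which became 0.0877 after adjustment, and 0.5 with 2 libraries. Serum tests, and those in G1 of 2i with 6 libraries, thus had little or no room to pass. No difference between tables can be read from these counts. Leaving out any one of the 8 libraries with late-S/G2 cells of 2i left 5 passing tests in that table. With at least 40 cells per library and group, or with cells of middle depth, 0 tests passed in 2i (sign-flip tests, 15 and 9 without adjustment) and 0 in haploid cells (0 and 0 without adjustment). Haploid groups then kept 2 to 4 and 3 to 5 libraries. Their smallest possible sign-flip p was 0.125 and 0.0625, so no haploid test could pass. With at least 40 cells the haploid alignment differences were -0.188 in G1, -0.166 in early-S and -0.162 in late-S/G2. The order of cells was not tested in G1, where it holds the far distance.

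The alignment score was the most regular of these. It was lower in long cells in each of the 70 combinations of library and group. In early-S it was 0.156 in long and 0.337 in short cells of 2i (difference -0.181 ± 0.0529, SD, 14 libraries, permutation with adjusted p = 0.00522), and in haploid early-S cells 0.153 and 0.323 (-0.170 ± 0.0695, 11 libraries, permutation with adjusted p = 0.0154). It also passed in late-S/G2 of 2i (-0.152 ± 0.0336, 8 libraries, exact adjusted p = 0.0378) and in G1 and late-S/G2 of haploid cells (-0.180 ± 0.0721 and -0.135 ± 0.0321, exact adjusted p = 0.0378 and 0.0309). In G1 of 2i it was -0.144 ± 0.0416 in 6 libraries (exact adjusted p = 0.0877), and in early-S and late-S/G2 of serum -0.110 ± 0.0198 and -0.124 ± 0.0457 in 6 libraries each (exact adjusted p = 0.0877).

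Long cells had fewer near-band contacts within bins of the mitotic-band share. The difference in near-band share was -3.48 percentage points ± 2.43 in early-S of 2i (13 of 14 libraries, permutation with adjusted p = 0.0106), -2.11 ± 0.585 in late-S/G2 of 2i (8 of 8 libraries, exact adjusted p = 0.0378) and -2.38 ± 1.25 in late-S/G2 of haploid cells (9 of 9, exact adjusted p = 0.0309). With the mitotic-band share matched, fewer near-band contacts leave more outside both bands, by 3.62, 2.32 and 2.58 points. Over all groups and tables the near-band share was lower in 61 of 70 combinations.

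Contacts between chromosomes were more frequent in long cells, in 61 of 70 combinations. The share passed in late-S/G2, at 5.11% against 4.47% in 2i (8 of 8 libraries, exact adjusted p = 0.0378) and 7.91% against 5.82% in haploid cells (9 of 9, exact adjusted p = 0.0309). In early-S of 2i it was 7.16% against 6.64% in 11 of 14 libraries (permutation with adjusted p = 0.0877).

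The replication score, which rises as early-replicating regions gain copies, went in opposite directions in the 2 S-phase groups of 2i. In early-S of 2i long cells had the lower score, 1.16 against 1.21 (14 of 14 libraries, permutation with adjusted p = 0.00522). In late-S/G2 they had the higher score, 1.25 against 1.17 in 2i (8 of 8, exact adjusted p = 0.0378) and 1.28 against 1.21 in haploid cells (9 of 9, exact adjusted p = 0.0309). In early-S the difference was -0.000648 in haploid cells (higher in 6 of 11 libraries, permutation, adjusted p = 0.989) and -0.0155 in serum (exact adjusted p = 0.593). The authors' order was earlier in long cells in early-S and late-S/G2 of 2i and late-S/G2 of haploid cells, with differences of -181, -208 and -87.8 ranks. In these groups the order is built from this score and the near-band share. Its 3 passing tests, counted among the 18, therefore follow from those measures and are no separate result.

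The insulation score, the authors' measure of domain borders, was higher in long cells of 2i, 2.50 against 2.41 in early-S (14 of 14 libraries, permutation with adjusted p = 0.00522) and 2.23 against 2.19 in late-S/G2 (8 of 8, exact adjusted p = 0.0378). The late-S/G2 call was lost with at least 10 or at least 40 cells in place of 20, batch numbers as units, bins of 1 point, a split at the median and cells of middle depth, with differences of 0.00761 to 0.0449 and adjusted p (exact or permutation) of 0.0641 to 0.714. Insulation did not pass in haploid cells. It did not pass in serum either, where few libraries left little room to pass and the differences were 0.0175 in early-S and -0.00251 in late-S/G2. The compartment scores in cis and in trans, the chromosome coverage deviation and the number of contacts passed in none of their 9 tests each. Contacts were 169837 in long and 182915 in short early-S cells of 2i (permutation, adjusted p = 0.347, lower in 11 of 14 libraries).

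When both band shares were held by a linear fit, the alignment difference in early-S of 2i was -0.148 (permutation, adjusted p = 0.0157), the 1 of 29 tests in 2i that passed. The differences in near-band share, insulation and order of these cells became 0.172 points, -0.0209 and 6.998 ranks. The difference in replication score of these cells became -0.00188. For the near-band share a value near 0 is by construction, since that share was in the fit. In late-S/G2 of 2i the fit turned the sign of the share between chromosomes (-0.248 points), the replication score (-0.0224), insulation (-0.0489), the near-band share (0.341 points) and the order (33 ranks), none of them past the threshold. In late-S/G2 of haploid cells 4 measures kept their sign but no longer passed. They were near-band share (-0.892 points), share between chromosomes (0.683 points), replication score (0.0199) and order (-26.1 ranks). The alignment difference did not pass in G1 of haploid cells (-0.178, against -0.180 without the fit) or in late-S/G2 of 2i (-0.132, against -0.152). Both had an exact sign-flip p of 0.00781, the smallest that 8 libraries allow, and an adjusted p of 0.0514.

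**Figure D5:**
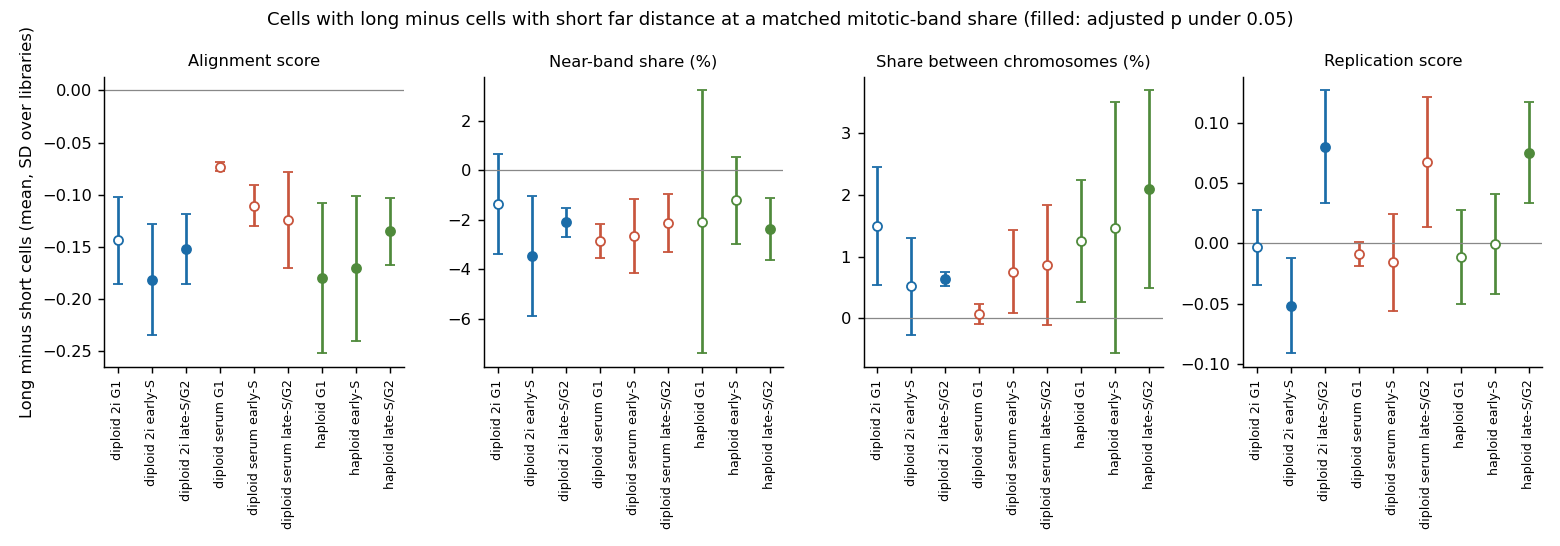
Difference between cells with a long and cells with a short far distance at a mitotic-band share matched in bins of 2 percentage points (mean and SD over libraries) in alignment score, near-band share (percentage points), share between chromosomes (percentage points) and replication score, by table and group. Filled points passed the adjusted threshold. The alignment score is lower in each of the 9 combinations, from -0.0730 to -0.181, and the replication score lies below 0 in early-S and above 0 in late-S/G2 of 2i.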

How the data were processed

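Values are the authors' deposited per-cell tables for 3 sets of cells. Per the file headers, contacts per cell are a count, the band shares and the share between chromosomes are each a fraction (given here in percent), and compartment, insulation, replication, alignment and coverage values are each a score of unstated scale. Other deposited columns are the far distance in bp, the authors' order and group, and a quality flag. Reads were aligned with Bowtie2 to mm9, per the submitters' processing notes. The 4 nuclear RNA samples were not used here.

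The members and lists were chosen with earlier results of these data known. Cells were averaged within libraries, with at least 10 cells per library and group (20 for relations and for long against short cells). The courses over bins and the comparison of pre-M with G1 cells had no such minimum. Their library means can rest on few cells, and their SDs over libraries include spread between cells. The matched far distance is the difference from the mean of bins of 2 percentage points of the mitotic-band share with at least 10 cells. Sign-flip and label permutation tests were two-sided, exact where the paired libraries, or those of the smaller side, were under 10 and drawn 100000 times otherwise, and p-values were adjusted by Benjamini-Hochberg within each family and a threshold of 0.05. A library on both sides of a comparison had its values swapped. No gene was to be named and cell type markers did not apply. The order was to be tested in all groups, and was left out in G1 because it proved to hold the far distance. Haploid batch numbers were joined to libraries through the cell list, and diploid 27 through its title.

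Alternatives were minimums of 5 and 20 cells, medians, cells of middle depth (25th to 75th percentile), batch numbers as units, bins of 1 point, a linear fit on both band shares, cells whatever their group, a split at the median in place of the upper and lower 25%, a replicate block, leave-one-out, Pearson's r, a minimum of 40 cells for relations, pooled cells and 10 bins. Bins holding both groups, groups with at least 2 libraries per side and bins of the near-band share were added after the data were seen. The number of libraries limits the precision. Computation used scipy 1.17.1, numpy 2.4.6 and pandas 2.3.3 under Python 3.11.15, with figures by matplotlib 3.10.9, and the tests were tested on simulated data.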

Additional observations from a re-analysis of the deposited data

Results flagged for a closer look

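Of 68 sets of 4 to 10 library means, 2 held a library far from the others, and chance gives about 1 in 20 such sets. The mitotic-band share of haploid library 7 in late-S/G2 of 2i_all was 8.08%, against 7.86% to 7.92% in the other 4 libraries. The far distance of diploid library 5_10 in late-S/G2 of 1CDS1 was 24.8 Mb, against 24.3 to 24.4 Mb in the other 3.

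The change of the far distance from G1 to early-S in 2i had opposite signs in each library of 1CDU and NoSort, and in each library of the G1 gate and NoSort. The differences between conditions were 4.93 Mb (exact permutation p = 0.0286) and 6.15 Mb (exact permutation p = 0.0667), and 5.66 and 5.24 Mb at a matched mitotic-band share (exact permutation p = 0.0286 and 0.0667). The matched change from early-S to late-S/G2 in serum was positive in each of 4 libraries of 1CDS1 (mean 0.547 Mb) and negative in each of 4 of 1CDS2 (mean -2.03 Mb), a difference of 2.58 Mb (exact permutation p = 0.05). None of these 5 passed adjustment over 20 comparisons (adjusted p = 0.190 each).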

How the results depend on the processing

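The serum minus 2i difference of diploid cells kept its direction and its call under each alternative run. The 2i_G1 minus 2i_all difference of haploid cells kept its direction in each, with 5.49 to 6.31 Mb and, matched, 4.45 to 5.08 Mb when single libraries were left out, where 9 of 19 omissions left too few libraries to pass. Leave-one-out gave -0.647 to -0.417 Mb for the matched G1 to early-S step in serum, -0.514 to 0.480 Mb for the matched 1CDU minus NoSort difference (below 0 without diploid 11), and 5 to 12 passing tests of long against short 2i cells. With a minimum of 5 cells the matched early-S to late-S/G2 step in 2i was -0.139 Mb, and 6 serum tests of long against short cells passed. With a minimum of 20 cells the matched steps were 1.19 and -0.602 Mb in 2i, -0.116 Mb for G1 to early-S in serum and -0.0728 Mb for early-S to late-S/G2 in haploid cells; 1CDU minus NoSort was 2.56 Mb (matched 2.28), haploid serum minus 2i -2.60 Mb (matched -2.57) and haploid minus diploid 2i 1.53 Mb (matched 1.58), all passing, and 0 tests of long against short cells passed in 2i and haploid cells (15 and 0 without adjustment, by sign-flip tests). Medians over cells gave -0.365 points for the mitotic-band share at the last gate, -0.166 Mb for the serum G1 to early-S step and -0.00528 Mb for matched 1CDU minus NoSort. Cells of middle depth (25th to 75th percentile) gave 0.570 and -0.586 Mb for the 2i steps, -0.896 Mb for the serum G1 step, 2.54 Mb (matched 2.01) for 1CDU minus NoSort, -2.49 Mb for matched haploid serum minus 2i, 1.53 Mb (matched 1.57) for haploid minus diploid, and 0 passing tests of long against short cells in 2i and haploid cells (9 and 0 without adjustment, by sign-flip tests). Batch numbers as units gave 1.19 Mb for the 2i G1 step, 2.35 Mb (matched 2.15) for 1CDU minus NoSort and 1.26 Mb (matched 1.36) for haploid minus diploid. Bins of 1 point gave -0.861 Mb for the late 2i step and -0.550 Mb for the serum G1 step. The linear fit on both shares gave 2.37, 2.32 and 3.33 Mb for the G1 steps of 2i, serum and haploid cells, -1.84 and -0.864 Mb for the late steps of serum and haploid cells, and 1 passing test in 2i; of long against short 2i cells it turned near-band share, insulation and order in early-S (0.172, -0.0209, 6.998) and near-band share, share between chromosomes, insulation, replication and order in late-S/G2 (0.341, -0.248, -0.0489, -0.0224, 33). Cells whatever their group gave 2.83 Mb (matched 1.43) for 1CDU minus NoSort and 0.564 Mb (matched 0.0666) for 1CDS1 minus 1CDS2. Bins holding both groups gave -2.52, -2.85 and -1.77 Mb for the G1 steps and -2.60 Mb for the late haploid step, and groups with at least 2 libraries per side gave -0.551 Mb for matched 1CDU minus NoSort. The cause of these changes was not tested, except that fewer libraries raise the smallest possible p.

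A replicate block by library number, over 5 pairs of haploid and diploid 2i libraries, gave 1.62 Mb and, matched, 1.70 Mb (exact adjusted p = 0.273 each) and changed no call. Of these haploid libraries, 19 and 20 were of Serum_G1/S. The numbers come from different lines and do not pair the libraries: the deviations of same-numbered libraries correlated between -0.159 and 0.400, above 0.1 in 3 of 5 pairs, and 2 of 5 correlated best with their own number. Libraries, not cells, limit these comparisons, and shallow haploid cells (25478 contacts on average in the shallowest early-S library) give the least precise shares.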
